A study of Mus musculus with 30 samples.

Results

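The genes of glycolysis, gluconeogenesis and the tricarboxylic acid (TCA) cycle were followed through 3T3-L1 cells exposed to oxidants. The 43 members were taken by symbol from a written list, with the condition that their counts summed to more than 14 over 30 libraries. All 43 met it, among 20139 genes that did. They are 17 glycolysis enzymes, 3 genes of gluconeogenesis and anaplerosis, 4 subunits of the pyruvate dehydrogenase complex and 19 TCA cycle enzymes. 3T3-L1 is a mouse preadipocyte line, and all groups, controls included, were kept in adipogenic medium with insulin, dexamethasone, isobutylmethylxanthine and indomethacin. Control cells had this medium alone (n = 5). The other groups, 5 libraries each, received pNaKtide at 0.7 µM, indoxyl sulfate (IS) at 100 µM, IS + pNaKtide, oxidised low density lipoprotein (oxLDL) at 50 µg/mL, or oxLDL + pNaKtide at these same doses. pNaKtide is a cell permeant peptide that blocks the Src signal of the Na,K-ATPase, IS is a uremic toxin, and oxLDL is a lipoprotein that loads cells with oxidised lipid. The labels give 5 days of treatment and the methods of the study a shorter one. On RNA extraction the labels speak of adipose tissue, although 3T3 cells are their stated source. Nothing says that the 5 libraries of a group came from separate experiments, so p-values measure the spread between these libraries.

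Glycolysis turns glucose into pyruvate in the cytosol, and lactate dehydrogenase turns pyruvate into lactate. The pyruvate dehydrogenase complex carries pyruvate into the mitochondrion's TCA cycle as acetyl-CoA, while pyruvate carboxylase makes oxaloacetate from it. Fat cells draw on both routes, for energy, for the citrate that becomes fatty acid, and for the glycerol backbone of triglyceride through phosphoenolpyruvate carboxykinase.

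Libraries held 6945498 to 15159877 counts. Values are CPM (counts scaled to a common library total after TMM), and a gene was called at an edgeR BH-adjusted p under 0.1. Of 5 macrophage markers, Ptprc and Itgam had 0 counts in all 30 libraries together, Adgre1 4, Csf1r 65 and Cd68, also found in other cells, 1569. Of 4 endothelial markers, Cdh5 had 6 counts, Kdr 8, Tek 8 and Pecam1 79. The 10 adipocyte markers were all detected, Fabp4 with 872992 counts and Lep with 76, and so were the 6 preadipocyte markers, Col1a1 with 556165 and Cd34 with 74. On the leading principal component of log2 CPM (9872 genes, 71.7% of the variance), control replicate 1 scored -22.4, where the other controls scored 5.3 to 25.4 and oxLDL libraries -35.7 to -12.5. IS replicate 4 scored 24.4, and the other IS libraries -30.9 to -19.1. Replicate 4 was also the highest on it in controls, oxLDL and oxLDL + pNaKtide, and the 6 pairs of replicate 4 among these 4 groups deviated together from their group means (r = 0.736 to 0.856), so IS replicate 4 was not alone in its direction. Counts of members called in comparisons that use either library, and the glycolysis and TCA medians and shares in controls, oxLDL and IS, are given with and without the 2 libraries. The 2 were picked from these same data. Control replicate 1 lay towards oxLDL and IS, and IS replicate 4 towards controls, so leaving them out favours larger differences. Other libraries also stood apart and were left out only singly. Replicate 4 of oxLDL + pNaKtide scored 57.0, with its group down to 12.8, and pNaKtide replicate 3 scored -4.6, with its group up to 30.9. In bulk RNA, fewer cells of a type and less RNA per cell cannot be told apart.

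With oxLDL, 14 of the 17 glycolysis enzymes fell and none rose. The falls ran along the whole route, from hexokinase 1 (Hk1) through glucose-6-phosphate isomerase (Gpi1), the 3 phosphofructokinases, aldolase A, triosephosphate isomerase (Tpi1), glyceraldehyde-3-phosphate dehydrogenase (Gapdh), phosphoglycerate kinase and mutase, enolase 1 (Eno1) and pyruvate kinase (Pkm) to both lactate dehydrogenases. Fold changes were moderate, from 1.16-fold lower for Pgam1 to 1.63-fold lower for Eno1. Among all 43 members 21 fell and 5 rose, against 18.0% of all genes called lower and 18.1% called higher. Abundant genes leaned the same way: of the 4090 genes with a mean of at least 50 CPM, 44.4% were lower and 16.2% higher. The median log2 fold change was -0.39 over the 17 glycolysis genes (-0.38 without Aldoc), -0.03 over the 19 TCA genes, 0.04 over all genes and -0.16 over the abundant ones.

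**Figure D1:**
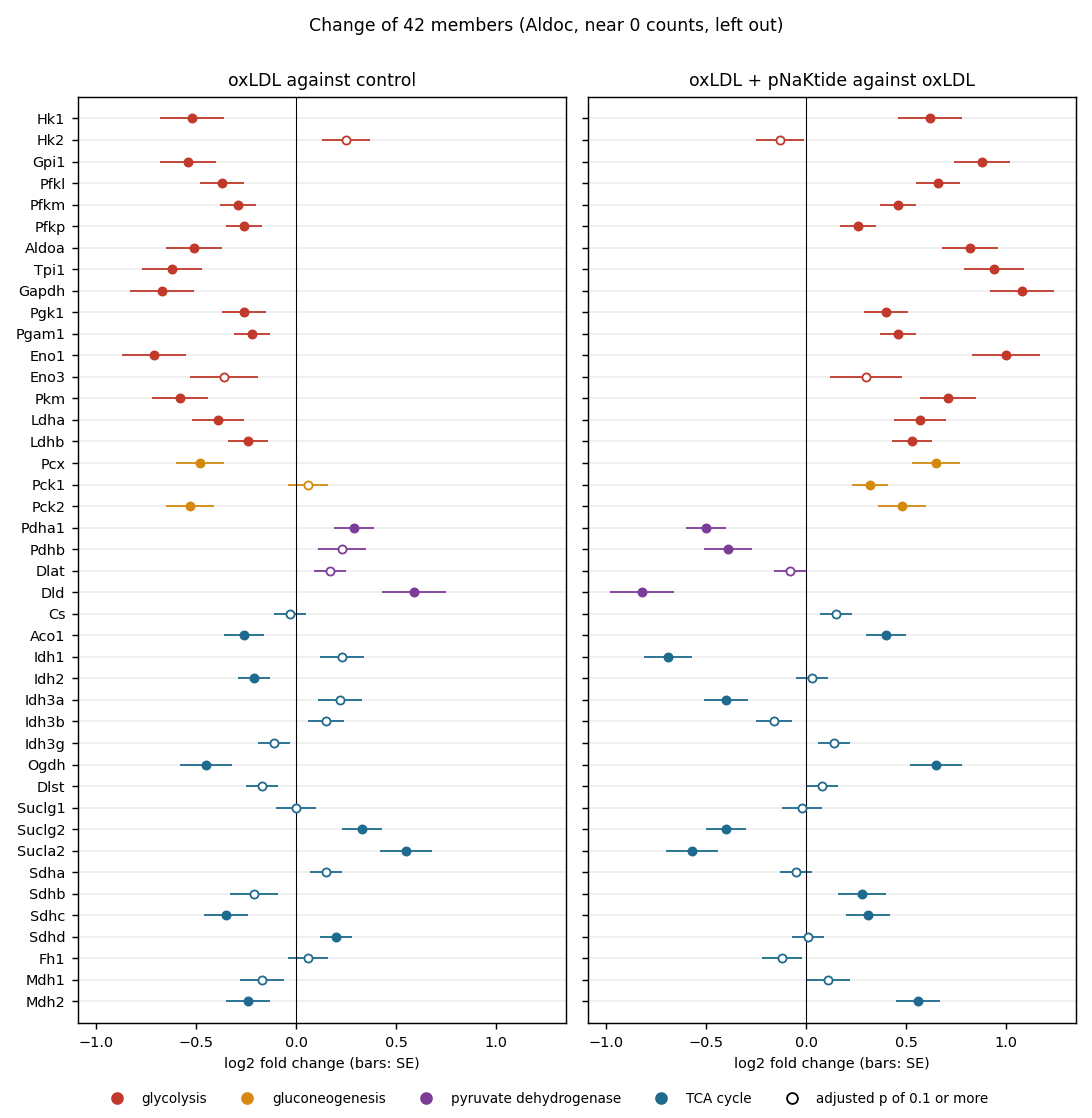
Log2 fold change with its standard error for 42 members, with oxLDL against control on the left and oxLDL + pNaKtide against oxLDL on the right. Filled points passed an edgeR BH-adjusted p of 0.1. The glycolysis genes in red lie left of 0 on the left, apart from Hk2, and right of 0 on the right, again apart from Hk2, while Dld, Pdha1, Suclg2 and Sucla2 take the opposite places. Both panels use the same oxLDL libraries.

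Eno1, which makes phosphoenolpyruvate, was measured at 557, 1009.9, 908.5, 1063 and 1019.5 CPM in control replicates 1 to 5. With oxLDL it was measured at 575, 455, 586, 707 and 468 CPM. Control replicate 1 lay among the oxLDL libraries, and the other 4 controls lay above all of them (log2 fold change -0.71, SE 0.16, edgeR BH-adjusted p = 0.00783). Pkm, the enzyme that makes pyruvate, was at 1244, 2019, 1880.4, 2146 and 2076 CPM in controls. With oxLDL Pkm was at 1231, 1080.1, 1370.4, 1482 and 1081 CPM, and here too control replicate 1 alone reached into the oxLDL range (log2 fold change -0.58, SE 0.14, edgeR BH-adjusted p = 0.00815). Gapdh, the step that makes NADH, stood at 253, 423, 413.5, 479 and 475 CPM in controls and at 255, 228, 255.5, 347 and 198 CPM with oxLDL (log2 fold change -0.67, SE 0.16, edgeR BH-adjusted p = 0.00818). Its highest oxLDL library, replicate 4, stayed below 4 of the 5 controls.

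Pck2, the mitochondrial phosphoenolpyruvate carboxykinase, fell as well. Its controls were at 84.6, 123, 124, 127 and 141 CPM, and its oxLDL libraries at 86.2, 70.1, 85.3, 99.8 and 72.6 CPM. Pck2 and Eno1 shared the smallest adjusted p of the members that fell (Pck2 log2 fold change -0.53, SE 0.12, edgeR BH-adjusted p = 0.00783). Pyruvate carboxylase (Pcx) was one of the most abundant members, at 2357, 2927, 2946, 3101 and 3303 CPM in controls. With oxLDL Pcx was at 1903, 1965, 2370.1, 2291 and 1977 CPM, and of the controls replicate 1 alone lay within that range (log2 fold change -0.48, SE 0.12, edgeR BH-adjusted p = 0.00825). Pck1, the cytosolic carboxykinase that serves glyceroneogenesis in fat cells, was low, at 12.8 ± 0.865 CPM in controls and 13.4 ± 0.342 CPM with oxLDL (SD, n = 5), and was not called (edgeR BH-adjusted p = 0.675).

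None of the 21 members that fell separated the oxLDL libraries from all 5 controls, where 3.52% of all genes were lower without overlap and 4.83% higher. Without control replicate 1, all 21 separated, as did 16.7% of all genes in that direction. That library was picked from these data for lying among the oxLDL libraries, so its removal favours this outcome and adds no support. With control replicate 1 and IS replicate 4 left out of the fit, 25 members fell and 8 rose with oxLDL, against 22.5% and 25.1% of all genes, and the median log2 fold change was -0.50 over glycolysis genes, -0.08 over TCA genes and 0.064 over all genes. Of the 26 members called, 18 kept the call whichever library of the 2 groups was left out. Pgk1, Pgam1, Ldhb, Aco1, Idh2, Sdhd, Mdh2 and Pfkp did not, and their adjusted p reached at most 0.210. Pfkp lost it only without oxLDL replicate 2. The other 7 each lost it without 6 or 7 libraries, all of them among control replicates 1 to 5 and oxLDL replicates 1, 2, 3 and 5.

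The 5 members that rose with oxLDL were Dld, Sucla2, Suclg2, Pdha1 and Sdhd. Dld, the dihydrolipoamide dehydrogenase shared by the pyruvate and 2-oxoglutarate dehydrogenase complexes, was at 196, 159, 219.6, 158.5 and 189 CPM in controls and at 256, 308, 286, 229.7 and 309 CPM with oxLDL. Every oxLDL library exceeded every control (log2 fold change 0.59, SE 0.16, edgeR BH-adjusted p = 0.0111). The same held for Sucla2, the ATP-forming subunit of succinyl-CoA synthetase, at 81.3, 64.3, 79.6, 61.5 and 65.8 CPM in controls against 98.2, 116, 101, 88.2 and 115 CPM (log2 fold change 0.55, SE 0.13, edgeR BH-adjusted p = 0.00818). Suclg2, the GTP-forming subunit of the same enzyme, moved from 88.0, 71.1, 90.2, 70.7 and 80.5 CPM to 101, 97.6, 104, 95.6 and 106 CPM, again without overlap (log2 fold change 0.33, SE 0.10, edgeR BH-adjusted p = 0.0199). Pdha1, the catalytic subunit of pyruvate dehydrogenase, rose by 0.29 on the log2 scale without overlap, and Sdhd, a membrane anchor of succinate dehydrogenase, by 0.20 with overlap. With the dependence of each library on base composition and length removed, Dld was at -0.03, Pdha1 at 0.10 and Suclg2 at 0.12, and all 3 lost the call.

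TCA genes were called in both directions. Of 19, 3 rose (Suclg2, Sucla2, Sdhd), 5 fell and 11 were not called, where 18.1% and 18.0% of all genes were called, and 16.2% and 44.4% of the abundant ones, to which all 19 belong. The falls were in Ogdh, the 2-oxoglutarate dehydrogenase (log2 fold change -0.45), the succinate dehydrogenase anchor Sdhc (-0.35), cytosolic aconitase Aco1 (-0.26), mitochondrial malate dehydrogenase Mdh2 (-0.24) and Idh2, the mitochondrial NADP-dependent isocitrate dehydrogenase (-0.21). Citrate synthase (Cs), the entry step, was at 672 ± 43.9 CPM in controls and 658 ± 39.4 CPM with oxLDL and was not called. Fumarase (Fh1) was at 194 ± 23.8 and 203 ± 15.9 CPM, and Suclg1, the subunit common to both forms of succinyl-CoA synthetase, at 249.8 ± 29.8 and 249 ± 26.3 CPM, both not called. Of the 5 falls, those of Aco1, Mdh2 and Idh2 lost the call when the dependence of each library on base composition and length was removed.

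Glycolysis members together held 1.24% ± 0.173 of all counts in controls (SD, n = 5) and 0.987% ± 0.110 with oxLDL. The library values were 0.939% to 1.35% against 0.872% to 1.13%, and only control replicate 1 fell inside the oxLDL range. TCA members held 0.648% ± 0.0447 and 0.675% ± 0.0294, with ranges of 0.595% to 0.696% and 0.650% to 0.725% that overlapped. The ratio of the 2 sums was 1.92 ± 0.227 in controls, 1.46 ± 0.163 with oxLDL, and 2.23 ± 0.266 with oxLDL + pNaKtide. With pNaKtide alone the ratio was 2.10 ± 0.198. IS libraries had 1.58 ± 0.226, and those with IS + pNaKtide 1.81 ± 0.224. For 11 members, other annotated genes are near-identical copies, and these sums leave their counts out. With those counts added, the glycolysis share was 2.21% ± 0.368 in controls and 1.69% ± 0.227 with oxLDL, and the ratio 3.39 ± 0.496 in controls, 2.49 ± 0.343 with oxLDL and 4.00 ± 0.563 with oxLDL + pNaKtide. Without control replicate 1 the glycolysis share was 1.32% ± 0.0419 in controls, the TCA share 0.661% ± 0.0387 and their ratio 2.00 ± 0.147 (n = 4). Without IS replicate 4 these were 0.986% ± 0.0309, 0.665% ± 0.0231 and 1.48 ± 0.0331 in IS libraries (n = 4). These sums are described without a test.

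**Figure D2:**
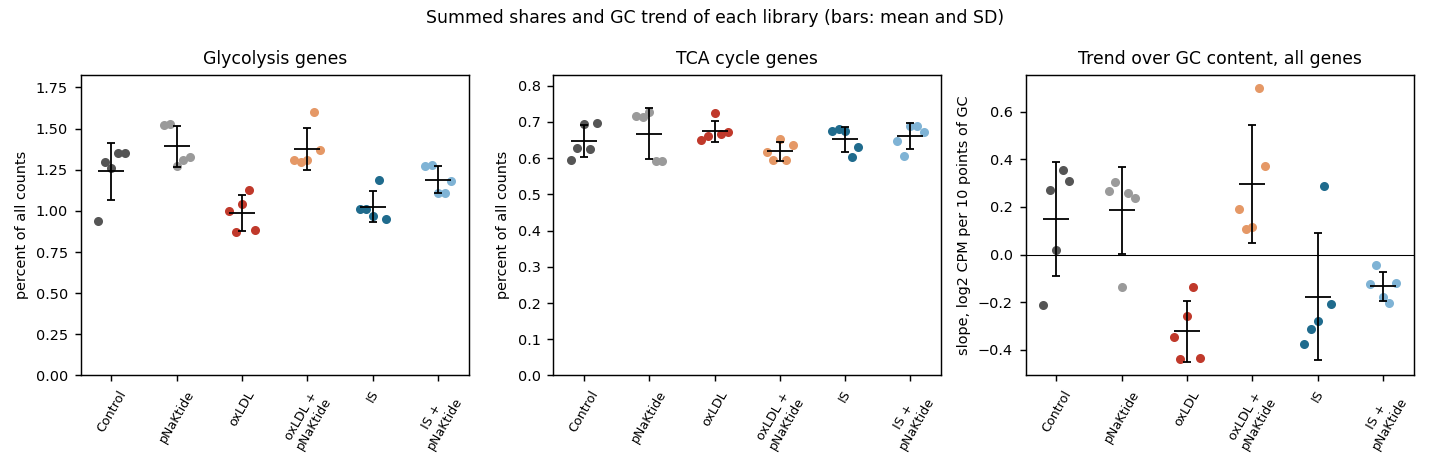
Percent of all counts held by the 17 glycolysis genes and the 19 TCA genes in each library, and the slope of each library's log2 CPM over GC content across all genes, by group. Points are libraries and bars are mean and SD (n = 5). The glycolysis share lies at 0.872% to 1.13% with oxLDL and at 1.30% to 1.60% with oxLDL + pNaKtide, and the slope is negative in every oxLDL library and positive in every oxLDL + pNaKtide library.

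The direction of change followed the base composition of the members. Across the 43 members, the log2 fold change with oxLDL and the GC content of the exons had r = -0.81, and across 12567 genes r = -0.70. This is a description, since the genes share the same libraries. The exons of glycolysis members held a median of 54.1% GC (48.7% to 57.3%), those of TCA members 49.3% (43.1% to 55.9%) and those of the pyruvate dehydrogenase subunits 46.3% (40.0% to 47.5%), against 49.7% over all tested genes. Each library has its own slope of log2 CPM over GC content. It was -0.437 to -0.137 log2 units per 10 points of GC in oxLDL libraries, -0.212 in control replicate 1, 0.0174 to 0.355 in the other controls and 0.109 to 0.699 with oxLDL + pNaKtide.

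When the dependence on GC and on length was removed library by library, 16 members fell and 4 rose with oxLDL, against 10.9% and 8.04% of all genes. Of the 17 glycolysis genes, 10 still fell, among them Eno1 (log2 fold change -0.55), Gapdh (-0.47), Hk1 (-0.42), Gpi1 (-0.41), Tpi1 (-0.41) and Pkm (-0.41). The calls of Pfkl (-0.18), Pfkm (-0.10), Pgam1 (0.01) and Ldhb (-0.01) were lost, as were those of the TCA genes Aco1 (-0.23), Mdh2 (-0.04) and Idh2 (0.04). Ogdh and Sdhc still fell, Dlst (-0.29) and Mdh1 (-0.27) were called lower, and hexokinase 2 (Hk2) was called higher (0.35). The rises of Dld (-0.03), Pdha1 (0.10) and Suclg2 (0.12) were lost as well, while Sucla2 (0.16) and Sdhd (0.31) were still called higher, and Idh3b (0.19) joined them. The part of base composition in these changes was not tested further. Scaling by library size alone, without TMM, shifted the median of all genes from 0.045 to 0.172 and gave 14 members lower and 12 higher, against 11.3% and 24.6% of all genes. The glycolysis median was then -0.25.

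**Figure D3:**
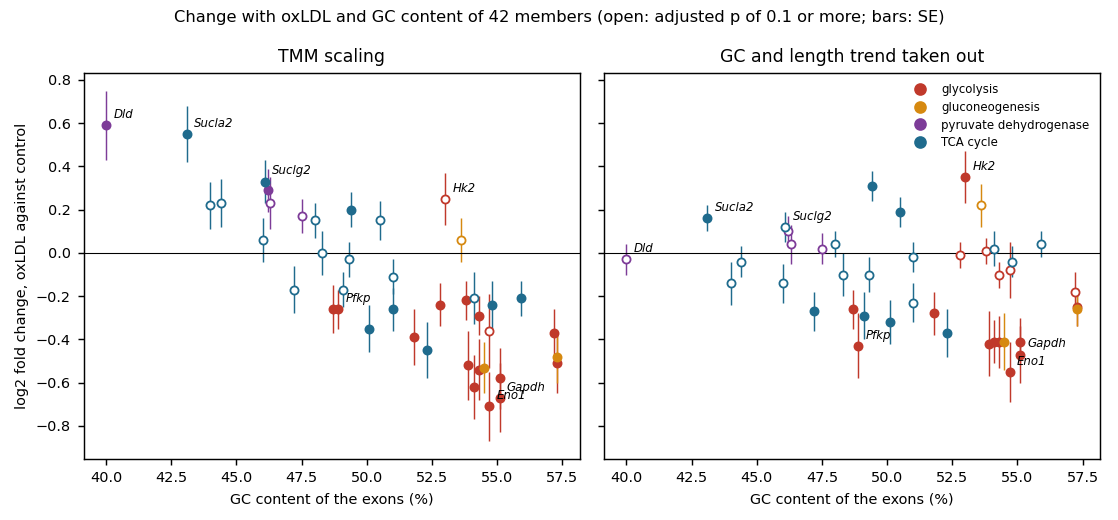
Log2 fold change with oxLDL against control (bars are SE) over the GC content of the exons of 42 members, under TMM scaling on the left and with the GC and length trend of each library removed on the right. Open points had an edgeR BH-adjusted p of 0.1 or more. On the left the members descend from Dld at 40.0% GC and 0.59 to Eno1 at 54.7% GC and -0.71, and on the right Dld lies at -0.03 and Eno1 at -0.55.

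Promoter sequence was read for members that fell or rose, since the hypoxia-inducible factor is known to bind the core ACGTG before several glycolysis genes. The windows are 250 bases before the transcription start, from RefSeq (GRCm38.p6), and 41 of the 43 members had one. Ldha (chr7:46845554-46845803, plus strand) fell with oxLDL and holds the core several times, Gapdh (chr6:125165774-125166023, minus strand) fell further and holds none, and Dld (chr12:31351472-31351721, minus strand) rose and holds none. Capitals mark ACGTG on either strand, read as ACGTG or CACGT, and the palindrome CACGTG, the E-box, counts on both.
Ldha: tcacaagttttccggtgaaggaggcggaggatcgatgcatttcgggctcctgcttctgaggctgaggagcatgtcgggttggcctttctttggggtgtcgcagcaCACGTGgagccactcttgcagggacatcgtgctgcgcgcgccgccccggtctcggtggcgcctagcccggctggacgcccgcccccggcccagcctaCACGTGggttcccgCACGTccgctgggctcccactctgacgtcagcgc
Gapdh: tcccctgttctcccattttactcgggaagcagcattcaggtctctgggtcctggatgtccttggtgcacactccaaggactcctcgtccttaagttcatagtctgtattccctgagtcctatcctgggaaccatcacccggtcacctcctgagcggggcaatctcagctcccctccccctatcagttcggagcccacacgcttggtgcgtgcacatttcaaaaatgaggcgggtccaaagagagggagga
Dld: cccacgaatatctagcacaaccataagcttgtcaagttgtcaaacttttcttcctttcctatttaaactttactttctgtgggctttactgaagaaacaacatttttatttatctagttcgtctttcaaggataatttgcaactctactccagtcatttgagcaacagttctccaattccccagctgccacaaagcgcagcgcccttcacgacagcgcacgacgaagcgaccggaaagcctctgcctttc
Counting any window of a gene, 6 of the 14 glycolysis genes that fell with oxLDL held the core (42.9%), as did 7 of all 17 glycolysis genes (41.2%), 4 of 17 TCA genes with a window (23.5%) and 18.5% of 27025 genes. A match is a description of letters and not of binding. Of 12 other hypoxia-response genes on a list, 1 rose (Hif1a) and 1 fell (Egln3) with oxLDL, against 18.1% and 18.0% of all genes, with a median log2 fold change of 0.02.

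In the presence of oxLDL, pNaKtide moved most of the same steps upwards. Against oxLDL alone, oxLDL + pNaKtide raised 14 of 17 glycolysis genes and lowered none, raised all 3 genes of gluconeogenesis, lowered 3 of 4 pyruvate dehydrogenase subunits, and raised 5 and lowered 4 of the 19 TCA genes. In all, 22 members rose and 7 fell, against 22.1% and 26.1% of all genes and 48.3% and 25.6% of the abundant genes. The median was 0.57 over glycolysis genes (0.59 without Aldoc), 0.03 over TCA genes, -0.09 over all genes and 0.17 over the abundant ones. The 2 comparisons share the oxLDL libraries, so their directions are not independent.

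Gapdh changed most, at 478.5, 457, 491.5, 778 and 510.5 CPM with oxLDL + pNaKtide. Every one of these exceeded every oxLDL library given above, a 2.11-fold difference (log2 fold change 1.08, SE 0.16, edgeR BH-adjusted p = 1.8e-05). Gpi1, which interconverts glucose 6-phosphate and fructose 6-phosphate, was at 451, 381, 477, 545 and 394 CPM with oxLDL and at 786.5, 752, 702, 1029.5 and 874 CPM with oxLDL + pNaKtide (log2 fold change 0.88, SE 0.14, edgeR BH-adjusted p = 2.0e-05). Tpi1, which balances the 2 triose phosphates, went from 733, 626, 814, 874 and 613 CPM to 1325, 1259, 1128, 1819 and 1475 CPM (log2 fold change 0.94, SE 0.15, edgeR BH-adjusted p = 3.3e-05). Neither overlapped, and in both, as for Gapdh, replicate 4 of oxLDL + pNaKtide, the smallest library, was the highest. Eno1 stood 2.00-fold higher and Pcx 1.57-fold higher (adjusted p = 3.7e-05 and 6.4e-05, edgeR with BH).

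Of the members that fell, Idh1, the cytosolic NADP-dependent isocitrate dehydrogenase, went from 591, 612.5, 674, 586 and 612 CPM with oxLDL to 406, 389, 439.8, 313 and 355 CPM (log2 fold change -0.69, SE 0.12, edgeR BH-adjusted p = 3.9e-05). Dld was at 157, 167, 218, 109 and 137 CPM with oxLDL + pNaKtide (log2 fold change -0.82, SE 0.16, edgeR BH-adjusted p = 0.000179). Pdha1 went from 333, 345, 352, 321 and 359 CPM to 254.5, 254, 265, 195 and 238 CPM (log2 fold change -0.50, SE 0.10, edgeR BH-adjusted p = 0.000179). In all 3 every oxLDL + pNaKtide library was below every oxLDL library. Without overlap, 16 members were higher and 4 lower, against 13.6% and 14.8% of all genes. Pdhb (-0.39), Idh3a (-0.40), Suclg2 (-0.40) and Sucla2 (-0.57) also fell, and Mdh2 (0.56), Ogdh (0.65), Aco1 (0.40), Sdhc (0.31) and Sdhb (0.28) rose. With the GC and length trend removed, Dld was at -0.02 and lost the call, as did Sucla2, Suclg2, Pdhb and Idh3a. Of the 29 calls, 28 held whichever library of the 2 groups was left out, and Sdhb lost it without oxLDL replicates 1, 2 or 5 or oxLDL + pNaKtide replicate 4 (adjusted p up to 0.170).

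**Figure D4:**
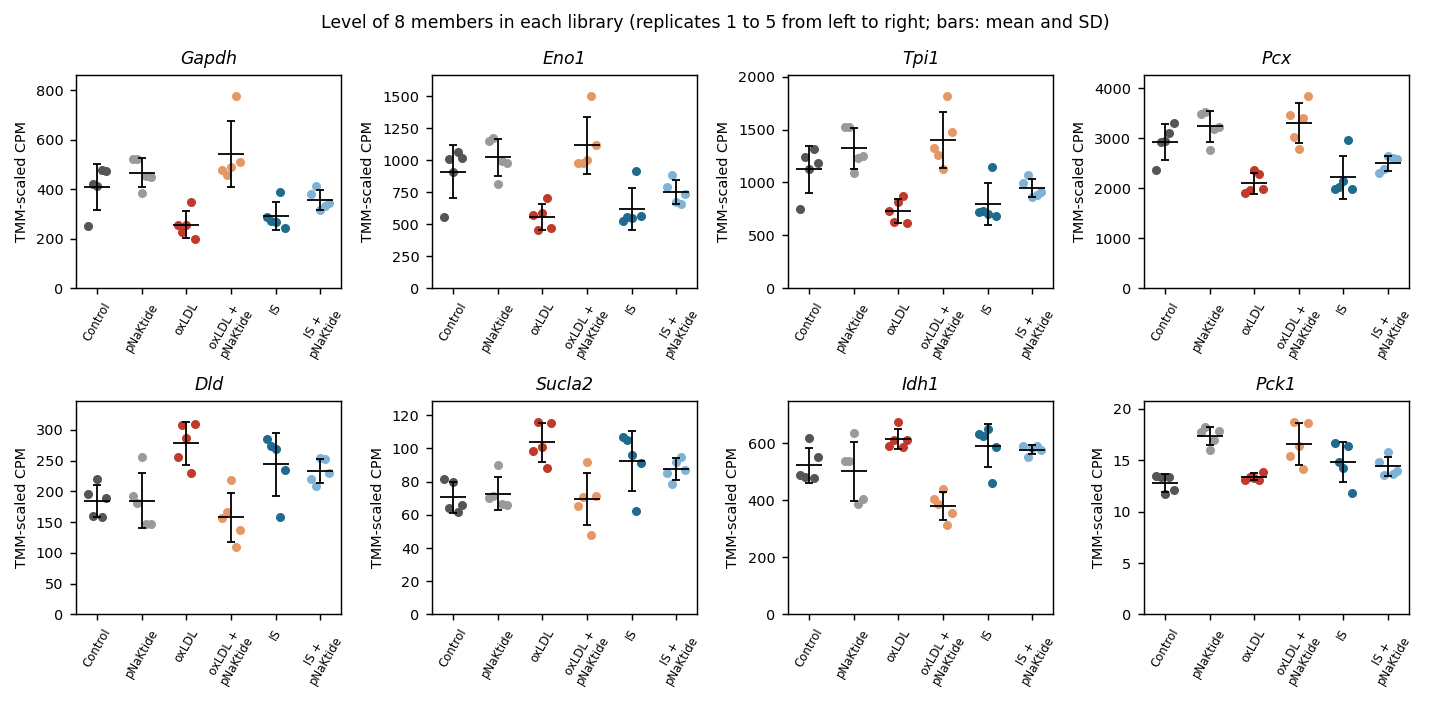
TMM-scaled CPM of 8 members in every library, with replicates 1 to 5 of a group from left to right and bars for mean and SD (n = 5). By group mean, Gapdh, Eno1, Tpi1 and Pcx are lowest with oxLDL and IS, with control replicate 1 and IS replicate 4 apart from their groups, Dld and Sucla2 are highest with oxLDL, Idh1 is lowest with oxLDL + pNaKtide, and Pck1 is highest with pNaKtide.

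With the GC and length trend taken out, 25 members rose and 4 fell, against 18.8% and 17.4% of all genes, and all 14 glycolysis calls held (Gapdh 0.89, Eno1 0.87, Gpi1 0.79, Tpi1 0.70). Idh1 (-0.34) and Pdha1 (-0.22) still fell, and Idh2 (-0.28) and Sdhd (-0.16) were called lower. The falls of Dld (-0.02), Sucla2 (-0.04), Suclg2 (-0.07), Pdhb (-0.11) and Idh3a (0.11) and the rises of Sdhb (-0.00) and Pck1 (0.16) lost the call. Cs (0.32), Dlst (0.33), Mdh1 (0.26), Dlat (0.17) and Sdha (0.15) were called higher. By library size alone 17 rose and 16 fell, against 13.4% and 38.1% of all genes, where the median of all genes moved from -0.086 to -0.302.

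A direct test of whether pNaKtide acted differently with oxLDL than without it called 20 members. The difference of the 2 changes was positive for 14 and negative for 6, against 12.8% and 11.8% of all genes. It was largest for Gapdh (0.89, SE 0.23) and Eno1 (0.83, SE 0.23) on the positive side, with Pcx at 0.51, and for Dld (-0.81, SE 0.23), Idh1 (-0.63) and Sucla2 (-0.62) on the negative side. With the GC and length trend taken out, 5 were positive (Gapdh, Eno1, Tpi1, Gpi1, Ogdh) and 3 negative (Idh1, Pdha1, Idh3b), against 6.79% and 4.27% of all genes, so that 9 positive and 4 negative calls were lost, among them Pcx (0.23), Dld (-0.08) and Sucla2 (-0.14). Left out in turn, single libraries gave counts from 10 to 28, the 28 without control replicate 1, where 37.3% of all genes were called. Without control replicate 1 and IS replicate 4 together, 21 were positive and 8 negative, against 19.3% and 20.6% of all genes. The count fell to 13 without control replicate 2, 11 without control replicate 4, 11 without oxLDL + pNaKtide replicate 4 and 10 without pNaKtide replicate 3. The share of all genes called fell with it, from 24.6% to 15.6%, 14.1%, 12.5% and 10.5% in the same order.

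Measured against untreated controls, oxLDL + pNaKtide left 2 members called, where 5.20% of all genes were. Pck1 was at 15.4, 18.7, 16.4, 14.1 and 18.6 CPM and above all controls, which were at 13.5, 13.4, 11.7, 13.4 and 12.1 CPM (log2 fold change 0.38, SE 0.10, edgeR BH-adjusted p = 0.0233). Idh1 was below all controls, which were at 487, 481, 618, 479 and 551 CPM (log2 fold change -0.46, SE 0.12, edgeR BH-adjusted p = 0.0243), and lost the call without oxLDL + pNaKtide replicate 4 (adjusted p = 0.111). The log2 fold changes of glycolysis genes were positive for 14 of 17, Gapdh at 0.41 and Pfkl at 0.28, with none called. With the GC and length trend taken out, 13 members were called higher and 2 lower, against 5.46% and 4.40% of all genes. Without control replicate 1 and IS replicate 4, 3 members were called (Pck1 higher, Idh1 and Idh2 lower), against 6.39% of all genes.

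With IS, 7 of the 10 calls were falls in glycolysis. This comparison uses the same 5 control libraries as that of oxLDL, so their directions are not independent. Of the 43 members 9 fell and 1 rose, against 3.49% and 4.45% of all genes, and 9.49% and 2.98% of the abundant ones. The falls were 7 in glycolysis (Gpi1, Pfkl, Aldoa, Tpi1, Gapdh, Eno1, Pkm) and those of Pcx and Pck2. The median log2 fold change was -0.35 in glycolysis (-0.34 without Aldoc), -0.11 in the TCA cycle, 0.03 over all genes and -0.12 over the abundant ones. Pck2 was at 73.7, 76.5, 75.0, 106.5 and 83.8 CPM with IS (log2 fold change -0.53, SE 0.12, edgeR BH-adjusted p = 0.0443). Pcx was at 1978, 2019, 2135, 2975 and 1975 CPM (log2 fold change -0.40, SE 0.12, edgeR BH-adjusted p = 0.0698), and Eno1 at 527, 555, 545, 913 and 563 CPM (log2 fold change -0.56, SE 0.16, edgeR BH-adjusted p = 0.0728). In all 3 genes IS replicate 4 was far above the other 4 IS libraries, inside the range of the controls. Sucla2 rose, at 107, 105, 96.3, 62.4 and 91.1 CPM with IS (log2 fold change 0.39, SE 0.13, edgeR BH-adjusted p = 0.0926), and there replicate 4 was the lowest.

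**Figure D5:**
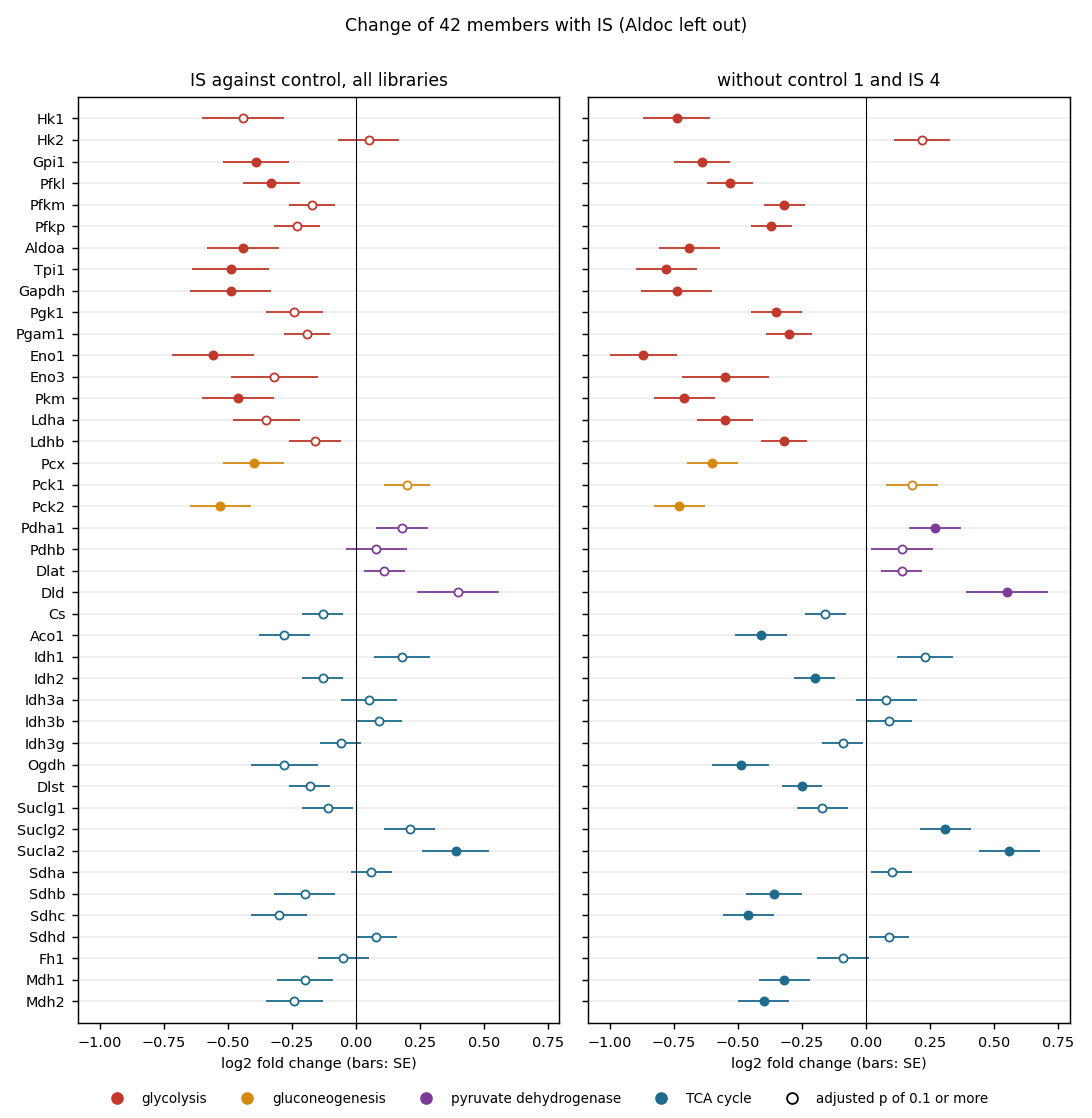
Log2 fold change with its standard error for 42 members with IS against control, in all libraries on the left and without control replicate 1 and IS replicate 4 on the right. Filled points passed an edgeR BH-adjusted p of 0.1. With all libraries 10 members passed, and without these 2 libraries 29 did, Eno1 then at -0.87 and Dld at 0.55.

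The number of IS calls changed with the libraries in the fit, as did the share of all genes called, 7.94% with all libraries. Without control replicate 1 the count was 27, where 33.2% of all genes were called, and without IS replicate 4 it was also 27, where 34.5% were. Without any 1 of the other 8 it was 0 or 1, with 1 left without control replicate 3 and 1 without IS replicate 5, and 0.0745% to 1.51% of all genes were called. With control replicate 1 and IS replicate 4 both left out, 25 members fell and 4 rose, against 21.6% and 23.8% of all genes. The falls took in 15 of 17 glycolysis genes. The median was then -0.55 in glycolysis, -0.16 in the TCA cycle and 0.05 over all genes. Eno1 was then at -0.87, Tpi1 at -0.78, Hk1 at -0.74, Pck2 at -0.73, Sucla2 at 0.56 and Dld at 0.55 on the log2 scale. With the GC and length trend taken out of all libraries, 3 fell (Tpi1 -0.36, Pkm -0.34, Pck2 -0.44) and Pck1 rose (0.31), against 2.20% and 1.95% of all genes, and the other 7 calls were lost. The slope over GC content was 0.290 in IS replicate 4 and -0.376 to -0.208 in the other 4 IS libraries.

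Adding pNaKtide to IS called none of the 43 members against IS alone, and none of all genes (0%). At an unadjusted p of 0.05 edgeR gave 4 members, all higher, namely Pfkl (0.31), Pgk1 (0.29), Pgam1 (0.27) and Ldha (0.27), and 564 genes in all (2.80%). DESeq2 called none of the members either. With control replicate 1 and IS replicate 4 left out, edgeR called Pfkl higher (0.42), against 0.0348% of all genes. In Pgk1 and Pgam1 all IS + pNaKtide libraries exceeded all IS libraries, as in 0.551% of all genes, with 0.283% the other way. In IS libraries the glycolysis share was 1.03% ± 0.0962 (0.952% to 1.19%). Adding pNaKtide it was 1.19% ± 0.0852 (1.11% to 1.28%), and these ranges overlapped. Against controls, IS + pNaKtide had none of the 43 called, where 0.358% of all genes were, and 12 at an unadjusted p of 0.05, which 4022 of all 20139 genes reached. Without control replicate 1 and IS replicate 4 it had 23 (6 higher, 17 lower), against 32.4% of all genes. DESeq2 called 1 there with all libraries, against 2.54% of all genes. The difference between the changes with pNaKtide with and without IS was called for none of the members by edgeR or DESeq2 and for 0% of all genes, of which 619 (3.07%) had an unadjusted p under 0.05, and without these 2 libraries none of the members and 0% of all genes were called.

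pNaKtide alone called none of the members, and 1 gene of 20139 (0.00497%). At an unadjusted p of 0.05 there were 4, all higher, and 6.12% of all genes. By edgeR none of the members and 0% of all genes were called without control replicate 1 and IS replicate 4. Pck1 was at 17.7, 18.2, 16.0, 17.0 and 17.8 CPM, above every control (log2 fold change 0.43, SE 0.10, edgeR BH-adjusted p = 0.322), and DESeq2 called this gene and 0.164% of all genes. The others were Pfkl (0.26), Pgam1 (0.23) and Sdha, the flavoprotein of succinate dehydrogenase (0.18). Gapdh was at 524, 525, 384, 454 and 451 CPM with pNaKtide, above the mean of controls in all but replicate 3 (log2 fold change 0.19, edgeR BH-adjusted p = 0.948).

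Several steps have more than 1 enzyme, and their levels were compared per length in the authors' FPKM. Aldoa, the main aldolase, had 1075 ± 199.7 FPKM in controls and Aldoc 0.0684 ± 0.0367, with 49 counts for Aldoc in all libraries together, for which no fold is given. Eno1 exceeded the muscle enolase Eno3 by 37.4 ± 4.40 times in controls, 29.4 ± 2.04 with oxLDL and 48.3 ± 7.61 with oxLDL + pNaKtide. With the counts at near-identical copies of Eno1 added, these ratios were 107.7 ± 12.5, 85.9 ± 6.24 and 138.8 ± 21.7. Eno3 at 7.88 ± 1.77 CPM in controls was not called in these comparisons. The phosphofructokinases kept the order Pfkl, Pfkm, Pfkp in every group, at 59.8 ± 8.91, 39.4 ± 4.23 and 11.5 ± 1.53 FPKM in controls, and in each library Pfkl was at least 1.26 times Pfkm. Ldha exceeded Ldhb 3.13 ± 0.277 times in controls and 2.85 ± 0.310 times with oxLDL, with overlapping ranges (3.30 ± 0.299 and 3.01 ± 0.339 with copies). Pck1 had 0.252 ± 0.0649 of the FPKM of Pck2 in controls and 0.374 ± 0.0600 with oxLDL.

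The hexokinases, which trap glucose in the cell, did not move alike. Hk1 was at 88.8, 138.5, 113, 150.3 and 133 CPM in controls and 96.3, 75.6, 83.0, 104 and 76.9 CPM with oxLDL, and Hk2, the insulin-responsive form, at 125, 88.0, 109.5, 91.3 and 113 CPM and 130.2, 128, 107, 128 and 133 CPM. Hk1 fell (log2 fold change -0.52, SE 0.16, edgeR BH-adjusted p = 0.0190), and Hk2 had a log2 fold change of 0.25 and was not called (edgeR BH-adjusted p = 0.133). The ratio of Hk1 to Hk2 in FPKM was 0.859 ± 0.271 in controls (0.497 to 1.15), 0.489 ± 0.0751 with oxLDL (0.405 to 0.566) and 0.843 ± 0.245 with oxLDL + pNaKtide (0.519 to 1.20). The ratio of Suclg2 to Sucla2 was 0.983 ± 0.0459 in controls and 0.847 ± 0.0841 with oxLDL, and 1.38 ± 0.0838 and 1.18 ± 0.126 with the copy of Suclg2 added. None of these ratios was tested.

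Some members have near-identical copies elsewhere in the genome. By alignment of transcripts (95% identity over at least 200 bases), 11 members have other annotated genes of this kind. Those of Gapdh, 78 in number, held 1818042 counts together, where Gapdh (chr6:125161715-125166467, GRCm38) itself held 127403. The copies of Eno1 (chr4:150236721-150248879) held 189% of its own counts and those of Pgk1 113%, and for the other 8 members the share was 4.04% to 38.98%. How reads with several matches were counted is not given in the sources used here, and whether counts at a copy are reads of the member, reads counted at both places or transcripts of the copy itself was not tested. With the copies added, the log2 fold change with oxLDL was -0.68 for Gapdh and -0.69 for Eno1, and 5 members rose and 21 fell, against 18.1% and 17.9% of all genes. Aldoa is listed under 2 gene identifiers, and ENSMUSG00000030695, which held 995676 counts, was used. The 3′ ends of Pfkp and Pitrm1 overlap on opposite strands, and the strand setting of the counting is not given, so reads from the overlap cannot be told apart.

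The genes that surround these routes were read from a list. Of 33 detected genes among 39 on a list of regulators, transporters and further isozymes, 6 rose and 9 fell with oxLDL (median -0.10), against 18.1% and 18.0% of all genes and 16.2% and 44.4% of the abundant ones. The citrate carrier Slc25a1 (log2 fold change -0.65), ATP citrate lyase Acly (-0.40) and the glucose-6-phosphatase G6pc3 (-0.73) fell with the smallest adjusted p. The pyruvate dehydrogenase phosphatase Pdp1 (0.43), the activator of phosphofructokinase Pfkfb3 (0.32) and the phosphatase Pdp2 (0.36) rose. With oxLDL + pNaKtide against oxLDL, 11 rose and 9 fell, against 22.1% and 26.1% of all genes. G6pc3 (1.13), Slc25a1 (0.82) and Pdk2 (0.49), a pyruvate dehydrogenase kinase, led the rises, and Pdp1 (-0.85), Pdk4 (-0.71) and the lactate carrier Slc16a1 (-0.66) the falls. With IS, Pdk4 (0.44) and Pdp1 (0.47) rose, and the glucose transporter Slc2a1 (-0.55), Slc25a1 (-0.42) and Eno2 (-0.45) fell, 2 and 3 of 33 against 4.45% and 3.49% of all genes. With any 1 library other than control replicate 1 or IS replicate 4 left out, 0 to 3 of the 33 were called with IS.

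Of 10 adipocyte markers, 4 fell with oxLDL (Cebpa, Cfd, Cidec, Lipe), 3 fell with IS and 5 rose with oxLDL + pNaKtide against oxLDL. The shares called in these directions were 18.0%, 3.49% and 22.1% of all genes, and 44.4%, 9.49% and 48.3% of the abundant ones. The summed level of these markers was 13419 to 17132 CPM in controls, 12773 to 16986 with oxLDL, 16032 to 18469 with oxLDL + pNaKtide and 11351 to 14390.1 with IS. Of 6 preadipocyte markers, 2 fell with oxLDL (Col1a1, Dlk1), 2 fell with IS, and 2 rose and 1 fell with oxLDL + pNaKtide against oxLDL, where the shares of all genes were 18.0%, 3.49%, 22.1% and 26.1%. With any 1 library other than control replicate 1 or IS replicate 4 left out, 0 or 1 gene of each marker list was called with IS. The preadipocyte sums were 2126 to 3156 CPM in controls, 1646 to 1945 with oxLDL, 1677 to 3088 with oxLDL + pNaKtide and 1184 to 2436 with IS. The part of cell state in the changes of the enzymes was not tested.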

How the data were processed

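Stranded mRNA libraries from 3T3-L1 cells, 30 in all, in 6 groups of 5, were sequenced. Per the labels and the study's methods the authors trimmed reads with Trimmomatic 0.38, aligned them to GRCm38 with HISAT2 2.1.0 and deposited raw counts per gene. The FPKM values, deposited by the authors, were made with DESeq2 1.20.0 and served for levels per length only. A table of normalized counts was not used. How multiply matched reads and strand were handled is not given in the sources used here.

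Genes with more than 14 counts over all libraries (20139 of 54232 listed) were scaled by TMM and fitted with edgeR 4.0.16 (robust quasi-likelihood, R 4.3.3), with all 6 groups in 1 model, and p-values were adjusted over all 20139 genes by Benjamini-Hochberg at 0.1. All tests are two-sided. Depth was 6945498 to 15159877 counts per library. Intervals and SEs do not cover errors of alignment. The biological coefficient of variation was 14%. Members per library were written out by rule for at most 3 called members in each direction with the smallest adjusted p in a comparison, and for isozymes, Pcx and Pck1. The members and lists were chosen with earlier results of these data known.

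Alternatives were RLE factors, library size alone, filterByExpr, a minimum of 1 count, DESeq2 1.42.0, limma 3.58.1 on log2(FPKM + 1), a replicate block, the compared groups alone, an adjusted p of 0.05, each library left out in turn, and a smooth trend over GC content and length removed per library (mgcv 1.9.3). Leaving out control replicate 1 and IS replicate 4 together, a pair picked from these data, was another. Adding the counts at near-identical copies (blastn 2.17.0) was chosen after seeing the data. The lowest chi-square per degree of freedom between 2 libraries of a group was 1.28 over 60 pairs. That does not show that the libraries are independent cultures. Some lay close together: pNaKtide replicates 1 to 5 scored 29, 30.9, -4.6, 14.9 and 13.2 on the leading principal component. The p-values and SDs take all 5 libraries of a group as separate units. Gene positions and GC content are from GENCODE M21.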

Additional observations from a re-analysis of the deposited data

Results flagged for a closer look

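Libraries far from the rest of their group were looked for by Dixon's ratio (the gap to the nearest library over the group's range, against its critical value) in 90 groups of values. Chance alone marks about 1 in 20 of separate groups, and 11 values were marked. The 90 are not separate, since the members vary together in the same libraries and 1 library can be marked many times. IS replicate 4 stood above the other IS libraries in Eno1 (912.8 CPM, ratio 0.906), Pkm (1844.5 CPM, 0.938), Pcx (2975.4 CPM, 0.840), Gpi1 (699.8 CPM, 0.943), Tpi1 (1150.1 CPM, 0.914) and the summed share of glycolysis genes (1.19%, 0.746). Replicate 4 of oxLDL + pNaKtide, with the fewest counts of all libraries, stood above its group in Eno1 (1503.0 CPM, 0.721), Gapdh (778.1 CPM, 0.834) and the glycolysis share (1.60%, 0.780). Control replicate 1 stood below the other controls in the glycolysis share (0.939%, 0.789), and pNaKtide replicate 3 above its group in Sucla2 (90.3 CPM, 0.776).

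The change with pNaKtide differed between cells with and without oxLDL for 20 members (edgeR, BH-adjusted p under 0.1 for the difference itself, on the log2 scale), against 24.6% of all genes. The difference was positive for glycolysis genes Gapdh (0.89), Eno1 (0.83), Tpi1 (0.70), Gpi1 (0.65), Aldoa (0.58), Pkm (0.58), Pfkl (0.40), Ldhb (0.34) and Pfkm (0.33), and for Ogdh (0.53), Pcx (0.51), Pck2 (0.42), Aco1 (0.36) and Mdh2 (0.36). It was negative for Dld (-0.81), Idh1 (-0.63), Sucla2 (-0.62), Pdha1 (-0.54), Suclg2 (-0.49) and Idh3a (-0.45). Of the 20, 10 kept the call whichever of the 20 libraries of the 4 groups was left out.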

How the results depend on the processing

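Same-numbered libraries did not deviate together throughout. Of 75 pairs of them, 39 had deviations from their group means correlated above 0.1, and r ran from -0.764 to 0.856. Whether some numbers share a batch was not tested. Replicate 4 was uneven: its 6 pairs among control, IS, oxLDL and oxLDL + pNaKtide had 0.736 to 0.856, and its 9 pairs with pNaKtide or IS + pNaKtide -0.450 to -0.024. With a replicate block the members called were 16 for IS (17.0% of all genes), 4 for oxLDL + pNaKtide against control (8.21%) and 2 for IS + pNaKtide against control (6.64%), and with oxLDL 9 rose and 21 fell (19.6% and 19.2%).

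Each count of members below is followed by the share of all genes called. With IS against control, 10 members were called (7.94%), 5 with a minimum of 1 count (1.86%) and 4 with the GC and length trend taken out (4.15%). The count was 0 with the compared groups alone (0%), 1 at an adjusted p of 0.05 (0.646%) and 29 without control replicate 1 and IS replicate 4 (45.4%). For oxLDL + pNaKtide against control, 2 (5.20%) became 4 with RLE factors (5.17%), 5 by library size alone (9.77%), 7 with filterByExpr (10.5%), 15 with the trend taken out (9.86%), 0 with the compared groups alone (0.0547%), 7 with DESeq2 (7.02%) and 7 with limma on FPKM (1631 of 13639 genes). For IS + pNaKtide against control, 0 (0.358%) became 2 with the trend taken out (2.10%), 3 with the compared groups alone (5.72%), 23 without both libraries (32.4%) and 1 with DESeq2 (2.54%), and for IS + pNaKtide against IS, 1 without both libraries (0.0348%). For pNaKtide alone, DESeq2 (0.164%) and limma on FPKM (0.0293%) each called 1. For the difference of changes with oxLDL, 20 (24.6%) became 8 with the trend taken out (11.1%) and 12 at an adjusted p of 0.05 (13.4%). With single libraries left out, the counts were 19 to 31 for oxLDL (24.7% to 45.9%), 0 to 27 for IS (0.0745% to 34.5%), 28 to 31 for oxLDL + pNaKtide against oxLDL (41.4% to 48.7%), 1 to 5 for oxLDL + pNaKtide against control (2.51% to 6.46%), 0 to 18 for IS + pNaKtide against control (0.00993% to 26.7%, with 18 without control replicate 1) and 10 to 28 for the difference with oxLDL (10.5% to 37.3%). They were 0 for pNaKtide, IS + pNaKtide against IS and the difference with IS.

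Directions turned with the trend taken out for Pgam1 (0.01), Dld (-0.03) and Idh2 (0.04) with oxLDL, for Dlat (0.17), Idh2 (-0.28), Idh3a (0.11), Sdha (0.15), Sdhb (-0.00) and Sdhd (-0.16) with oxLDL + pNaKtide against oxLDL, and for Idh3a (0.01) in the difference of changes. The cause was not tested. By library size alone they turned for Idh2 (-0.20), Dlst (-0.14) and Sdhd (-0.21) with oxLDL + pNaKtide against oxLDL. These were at 0.03, 0.08 and 0.01 under TMM, and this scaling moved the median of all genes from -0.086 to -0.302, a shift that by itself takes them below 0.

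As a share of the authors' FPKM, glycolysis genes held 0.727% in controls, 0.786% with pNaKtide, 0.624% with oxLDL, 0.739% with oxLDL + pNaKtide, 0.627% with IS and 0.717% with IS + pNaKtide, and TCA genes 0.346%, 0.340%, 0.383%, 0.299%, 0.361% and 0.359% in the same order. With single libraries left out, the mean glycolysis share of counts was 1.21% to 1.32% in controls, 1.36% to 1.42% with pNaKtide, 0.950% to 1.02% with oxLDL, 1.32% to 1.40% with oxLDL + pNaKtide, 0.986% to 1.05% with IS and 1.17% to 1.21% with IS + pNaKtide. The TCA share was 0.636% to 0.661%, 0.653% to 0.687%, 0.662% to 0.681%, 0.611% to 0.625%, 0.645% to 0.665% and 0.654% to 0.674%. With the counts at near-identical copies added, the glycolysis share was 2.21% in controls, 2.48% with pNaKtide, 1.69% with oxLDL, 2.48% with oxLDL + pNaKtide, 1.79% with IS and 2.08% with IS + pNaKtide. Depth limits Aldoc, with 49 counts in all.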

Other observations

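The 12 hypoxia-response genes, a list apart from the enzymes, summed to 845.6 to 1031.5 CPM with IS and to 1068.9 to 1175.1 CPM with IS + pNaKtide, so that these libraries did not overlap. Singly, 0.551% of all genes were higher without overlap in this comparison and 0.283% lower, and 0% of all genes were called. The sum was not a planned result, leans on its abundant genes and was not tested. In controls the sum was 928.7 to 1056.8 CPM. With IS against control, 3 of the 12 fell, the oxygen sensors Egln1 and Egln3 and the stress gene Ndrg1, and none rose (edgeR with BH), where 3.49% of all genes were lower and 4.45% higher. Egln1 and Egln3 were called in 2 of 10 fits that each left out 1 library, those without control replicate 1 or IS replicate 4, and Ndrg1 in 9. Of the 33 regulators, transporters and further isozymes, 4 were called with oxLDL + pNaKtide against control, where 5.20% of all genes were: the mitochondrial pyruvate carrier subunit Mpc2 rose, and Acly, Pdk4 and Pdp1 fell.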
